A study of Picea abies with 40 samples.

Results

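The genes described here are 150 of the 70736 genes listed for Norway spruce (Picea abies), a conifer, and they were selected on measured values: they peak in zone 4, the farthest of 4 root segments from the tip, and are raised in stele 3, a captured part of the central cylinder. Seedling roots grown on plates until about 2 days after germination gave RNA sequencing data in 40 libraries of 9 groups. No treatment, mutation or other genotype is named in the labels, so the groups differ by position and tissue. Whole root segments are called zone 1 to zone 4 from the tip, with 5 libraries each. Of these segments 3 measured 1 mm in length and 1 measured 2 mm, without a statement of which was the longer one. Laser capture microdissection cuts selected cells out of a thin tissue section under a microscope, and here it gave 5 groups of 4 libraries, namely stele 1, stele 2, stele 3, ground tissue and the QC area, an abbreviation kept here as the labels write it. The steles came from the elongation and differentiation zones per the design text, which does not say which number belongs to which zone.

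The members were chosen by a rule on these same libraries. Counts were first scaled to CPM, the counts of a gene per 1000000 counts of its library. A gene was eligible when its mean was at least 10 CPM in zone 4, at least 2 times the highest of zones 1 to 3 and at least 10 CPM in stele 3, and 458 genes were. Each was scored by the smaller of 2 ratios of (mean CPM + 1), zone 4 over the highest of zones 1 to 3, and stele 3 over the highest of stele 1, ground tissue and the QC area. The 150 with the best score are the members, and the other 308 eligible genes are called the lower-ranked genes below. The smaller ratio was the zone ratio for 127 members. Stele 2 did not enter the rule, nor did the order among zones 1, 2 and 3 or among stele 1, ground tissue and the QC area.

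A root grows from a meristem near its tip. With distance from the tip its cells stop dividing, elongate and then differentiate, so a series of segments cut from the tip backwards also runs through stages of cell development. The stele is the central cylinder, in which xylem, the water-conducting tissue, and phloem, the sugar-conducting tissue, form, and ground tissue surrounds it. Differentiating vascular cells are known for thickened secondary walls and, in xylem, for programmed cell death. The gene IDs are not paired with names or product descriptions here, so no member is assigned to any of these processes and genes are given by ID, nor could marker genes be used to check the captured tissues.

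Zone libraries held 3.53 to 7.25 M counts and captured libraries 4.94 to 12.0 M. RNA was extracted by different protocols for the 2 kinds of sample, so levels in one table are set beside the other without a test. All zone libraries were run in lane 3. Stele 2 was all in lane 7 and the QC area all in lane 8, while stele 1 had 2 libraries in each lane, stele 3 had only replicate 1 in lane 8 and ground tissue had only replicate 2 in lane 7. Whether replicates were separate seedlings or pools is not stated, so p-values measure the spread between libraries, which may be technical.

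Together the members took a share of the RNA counts that was larger in each zone farther from the tip. Their summed share was 0.107% ± 0.00756 of all counts in zone 1, 0.227% ± 0.0449 in zone 2, 0.664% ± 0.191 in zone 3 and 2.26% ± 0.179 in zone 4 (SD, n = 5 each). In the captured table it was 0.147% ± 0.0729 in stele 1, 0.592% ± 0.186 in stele 2 and 1.28% ± 0.156 in stele 3, against 0.0812% ± 0.0146 in ground tissue and 0.0640% ± 0.00648 in the QC area (SD, n = 4 each). The zone 4 share and the stele 3 share are high by choice of the members. The order of zones 1 to 3 and that of stele 1, ground tissue and the QC area did not enter the rule. Stele 2 did not enter it either, but stele 1 and stele 3 did, so its place between them is a description. In bulk samples such as these, fewer cells of a type and less RNA per cell cannot be told apart.

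**Figure D1:**
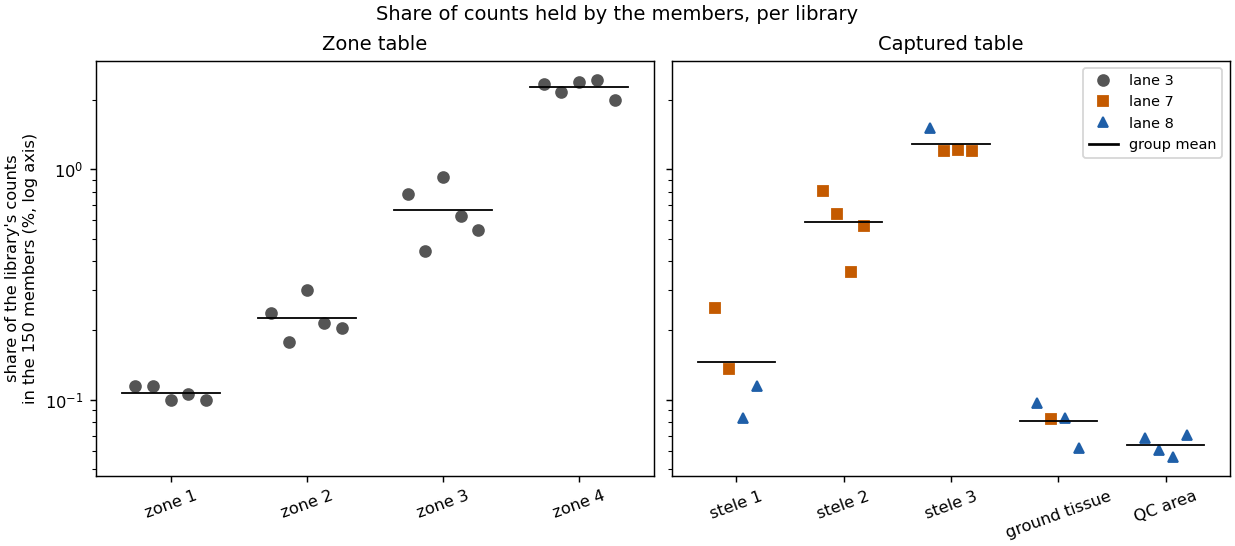
Share of each library's counts held by the 150 members, in percent on a log axis, with 1 point per library, horizontal bars for group means and lanes by colour and marker. Means run from 0.107% in zone 1 to 2.26% in zone 4, and stele 2 at 0.592% lies between stele 1 at 0.147% and stele 3 at 1.28%.

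By the typical member, zones and steles had the same order, while ground tissue and the QC area were both low and overlapped. The median of the members' mean CPM was 1.30 in zone 1, 4.82 in zone 2, 18.9 in zone 3 and 70.7 in zone 4. It was 1.87 in stele 1, 11.8 in stele 2 and 24.7 in stele 3, against 0.331 in ground tissue and 0.665 in the QC area. In single libraries the median member had 0.220 to 0.522 CPM in ground tissue and 0.233 to 0.570 CPM in the QC area. Away from the peak groups many members were not detected at this depth, with no count in any library for 22 members in zone 1, 1 in zone 2, 29 in stele 1, 38 in ground tissue and 43 in the QC area. Every member had a count in every zone 3, zone 4 and stele 3 library.

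**Figure D2:**
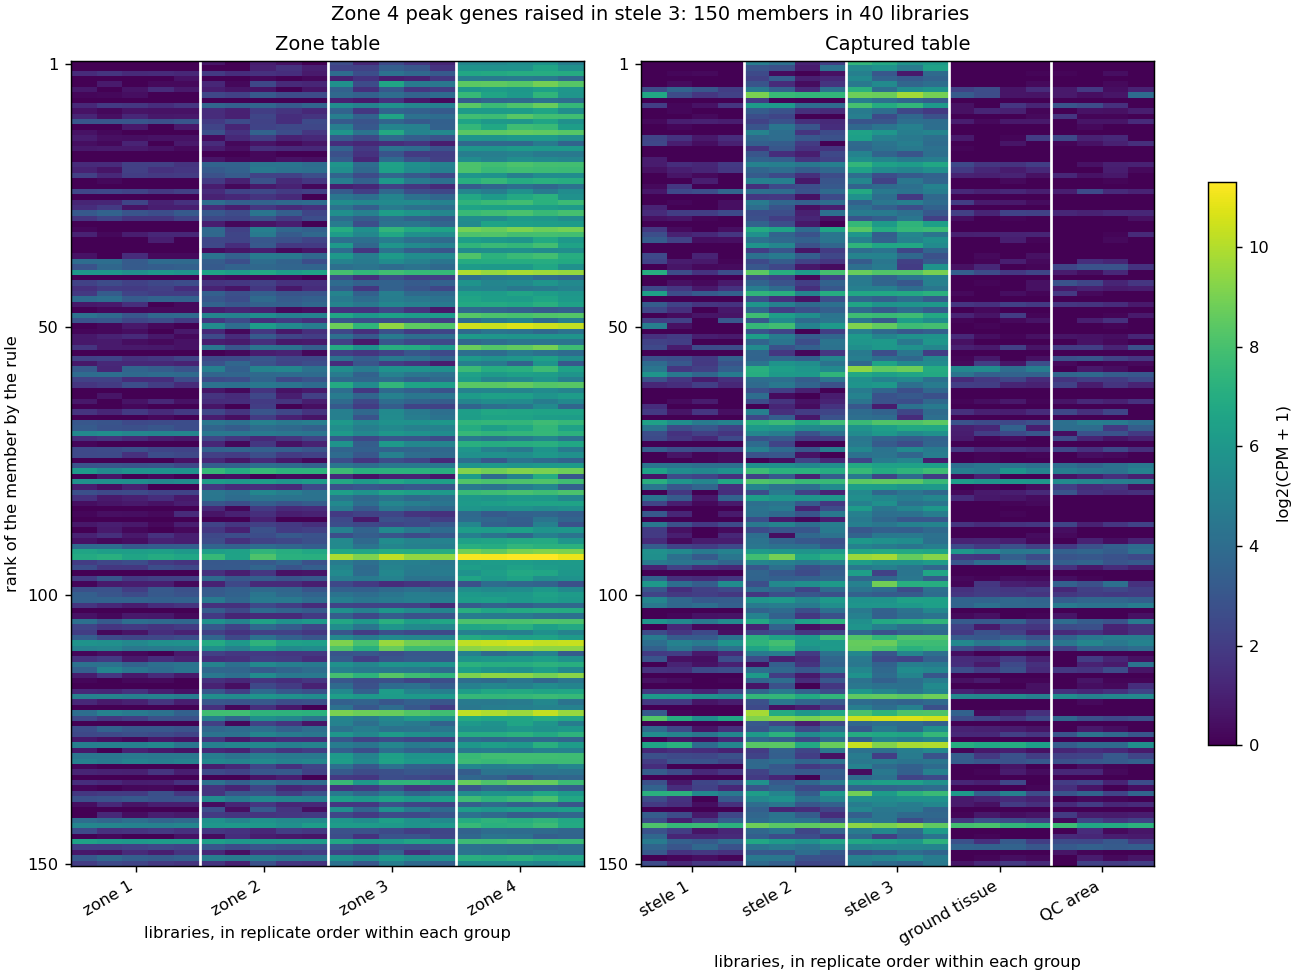
Level of each of the 150 members, as log2(CPM + 1) by colour, in all 40 libraries, with members from rank 1 at the top to rank 150 and libraries grouped by zone or captured region in replicate order. The zone 4 and stele 3 blocks are bright by the selection, zone 3 and stele 2 are intermediate, and 43 members have no count in the QC area.

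By the rule's own measure the zone 4 excess ran from 2.38-fold to 26.2-fold with a median of 3.30-fold, and the stele 3 excess from 2.39-fold to 126-fold with a median of 8.85-fold, all on the (CPM + 1) scale. These values chose the members and are given as a description. The last members inside the limit were MA_10426109g0010, rank 149 with a smaller ratio of 2.388, and MA_17807g0010, rank 150 with 2.382. Just outside were MA_68132g0010, rank 151 with 2.372, and MA_497147g0010, rank 152 with 2.369, so the limit cuts through a continuous range. Every zone 4 library lay above every other zone library for 147 members, where 14.6% of the tested genes did. Every stele 3 library lay above every library of stele 1, ground tissue and the QC area for 130 members, where 12.0% of the tested genes did. The rule used these contrasts.

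The member with the best rank, MA_102132g0010, had counts only in zones 2 to 4, stele 2 and stele 3. It had no count in the 5 zone 1 libraries, 0.566, 0, 0.867, 0.451 and 0 CPM in zone 2, 5.10, 1.41, 4.65, 2.43 and 1.30 CPM in zone 3, and 35.9, 35.2, 44.8, 53.0 and 27.2 CPM in zone 4. In the captured table it had no count in stele 1, ground tissue or the QC area, 26.5, 17.1, 1.20 and 3.47 CPM in stele 2 and 172, 112, 54.8 and 70.8 CPM in stele 3. Groups next to each other along zones 2 to 4 and from stele 2 to stele 3 do not overlap in it. The second in rank, MA_17548g0010, had no count in zone 1 either, 0, 0, 1.04, 2.03 and 0.933 CPM in zone 2, 3.78, 3.53, 9.31, 7.06 and 2.17 CPM in zone 3, and 55.8, 51.8, 52.5, 95.6 and 50.2 CPM in zone 4. It too had no count in stele 1, ground tissue or the QC area, with 6.94, 5.67, 0.833 and 17.8 CPM in stele 2 and 39.3, 53.0, 24.9 and 88.5 CPM in stele 3. Neighbouring groups again do not overlap. Against a floor of 3 counts over those 12 libraries, stele 3 was at least 3407-fold higher for MA_102132g0010 and at least 1746-fold higher for MA_17548g0010.

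Gene length is not known here, so CPM is compared between groups for 1 gene and not between genes as expression. By share of counts, MA_201611g0010 was the largest member in zone 4, with 116 ± 17.6 CPM in zone 1 and 168 ± 71.7 CPM in zone 2 (SD, n = 5 each), 926, 560.0, 1177, 719 and 690.3 CPM in zone 3 and 2361, 2302, 2455, 2527 and 2013 CPM in zone 4. All its zone 4 libraries stood far above zone 3. Its stele 3 libraries held 787, 873, 396 and 603 CPM and its stele 2 libraries 227, 489, 98.4 and 146 CPM, and here the 2 groups overlap. MA_20223g0020, the next in zone 4 at 1423 ± 173 CPM, averaged 0.220 ± 0.282 CPM in zone 1, 39.6 ± 22.8 CPM in zone 2 and 389 ± 195 CPM in zone 3 (SD, n = 5 each).

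Some members held more CPM in stele 3 than in zone 4. MA_9472752g0010, the largest in stele 3, had 312, 132, 45.4 and 104 CPM in stele 1, 550.5, 608, 503 and 663 CPM in stele 2 and 1330.1, 1511, 1617 and 1439.8 CPM in stele 3. No stele library overlapped with another stele group, and ground tissue at 3.97 ± 1.23 CPM and the QC area at 7.34 ± 3.69 CPM were far below (SD, n = 4 each). In whole segments the same gene reached 109.7 ± 11.5 CPM in zone 4 (SD, n = 5). MA_24872g0010 held 1327, 580.0, 897 and 992 CPM in stele 3 and 328, 337, 111 and 411 CPM in stele 2. In ground tissue its 129.5, 108, 127 and 83.3 CPM all lay above the 8.97, 14.1, 14.2 and 47.2 CPM of the QC area. Its zones 1, 2 and 3 were nearly level at 29.0 ± 6.21, 32.3 ± 3.41 and 26.7 ± 5.69 CPM, with zone 4 at 83.4 ± 30.9 CPM (SD, n = 5 each). Stele 3 CPM exceeded zone 4 CPM for 38 of the 150 members (25.3%), beside 26.9% of the lower-ranked genes. Zone 4 CPM was more than 10 times stele 3 CPM for 8 members (5.33%), beside 4.22% of the lower-ranked genes. The 2 levels had a Pearson r of 0.504 and a Spearman rho of 0.443 across the 150 members on the log2 scale, a description over genes that share libraries, depth and the selection.

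**Figure D3:**
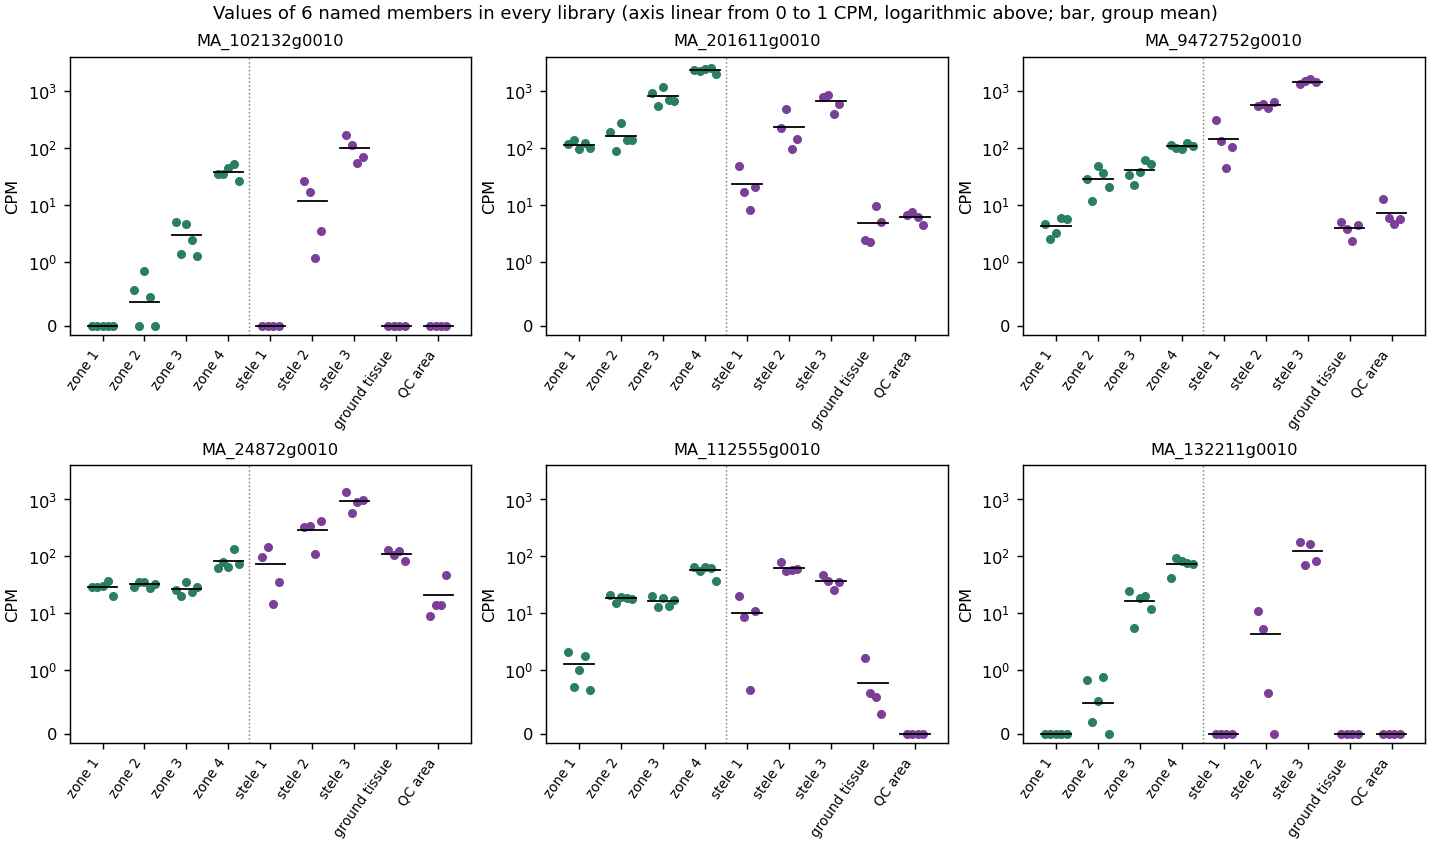
CPM of 6 named members in every library, on an axis that is linear from 0 to 1 CPM and logarithmic above, with group means as bars, zone groups in green left of the dotted line and captured groups in purple right of it. MA_102132g0010 and MA_132211g0010 are at 0 in zone 1, stele 1, ground tissue and the QC area, while MA_24872g0010 is nearly level over zones 1 to 3.

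The order among zones 1, 2 and 3, before the zone 4 peak, did not enter the rule. A zone 4 peak and a stele 3 level above stele 1 and the QC area may still favour genes that rise from the tip. The counts over zones 1 to 3 are therefore given as a description. Each table was tested with edgeR's quasi-likelihood test on the counts, with all its groups in one fit, Benjamini-Hochberg adjustment over all 27767 genes tested in the zone table or 27239 in the captured table, and a threshold of 0.05. All 150 members passed the filter on low counts in both tables, which their zone 4 and stele 3 levels assure. On the libraries of the 2 groups compared alone, 93 members would pass for zones 2 and 1, 136 for zones 3 and 2 and 133 for zones 3 and 1, and the rest entered through the other zones. Relative to zone 2, zone 3 was higher for 133 members (88.7%) and lower for 0, and 17 did not pass, where 26.2% of all tested genes were higher and 25.8% lower. At an unadjusted p under 0.05 the counts were 136 higher and 1 lower, with DESeq2 135 and 0, and 115 were higher by an estimate of at least 2-fold as well as called. In a fit of zones 2 and 3 alone, 119 of the 136 members that pass the filter were higher and 1 lower. Higher and lower counts were 135 and 1 with the replicate block, 129 and 1 with total counts and 131 and 1 without the filter. The median log2 fold change was 1.75 over the members and -0.0090 over all tested genes. Of the 308 lower-ranked genes 198 were higher in zone 3 and 6 lower.

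Zone 2 was already above zone 1 for most members. 107 members (71.3%) were higher in zone 2, 5 were lower and 38 did not pass, beside 28.1% higher and 27.6% lower among all tested genes. Of the 93 that pass the filter on zones 2 and 1 alone, 71 were higher and 5 lower in a fit of those libraries. Over the wider step, zone 3 was higher than zone 1 for 145 members (96.7%) and lower for 0, beside 38.9% higher and 35.2% lower among all, and at an unadjusted p under 0.05 the members' counts were also 145 and 0, and with DESeq2 146 and 0. Median log2 fold changes of the members were 1.77 for zone 2 over zone 1 and 3.52 for zone 3 over zone 1, and those of all tested genes were 0.016 and 0.077. Of the lower-ranked genes, 44.2% were higher in zone 2 than in zone 1 and 9.09% lower. Zone 3 was higher than zone 1 for 75.6% of them and lower for 2.27%. In group means, zone 1 was below zone 2 and zone 2 below zone 3 for 128 members, an order that 30.7% of tested genes had. Zone 3 was the highest of the 3 for 145 members, as for 37.5% of tested genes, zone 2 for 5 and zone 1 for 0.

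**Figure D4:**
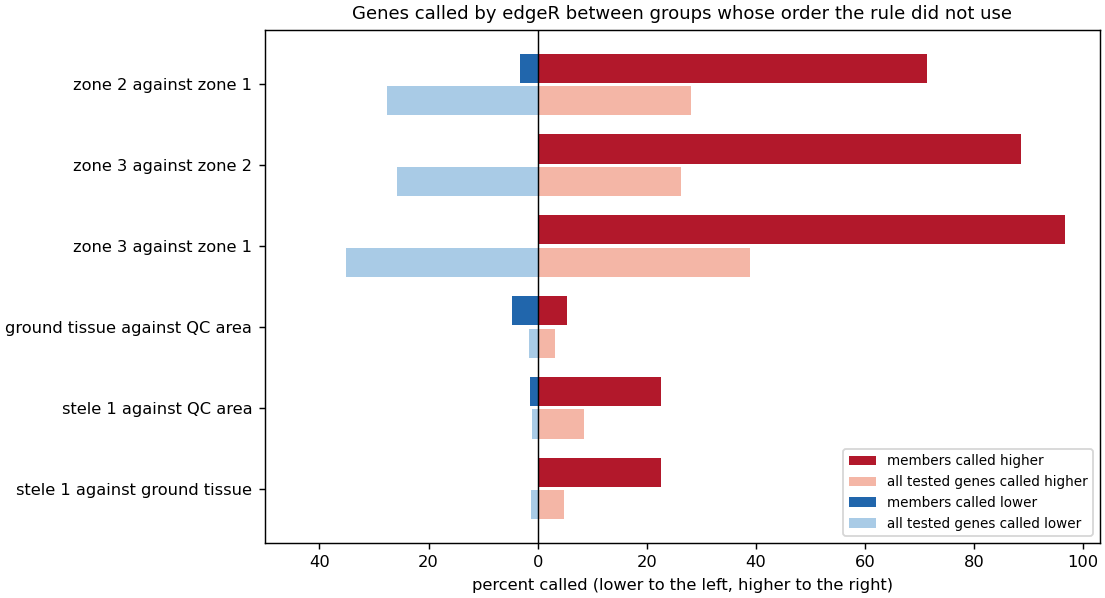
Percent of the 150 members (dark bars) and of all tested genes (light bars) called higher, to the right, or lower, to the left, by edgeR in the 6 contrasts whose order the rule did not use. In zone 3 against zone 2 the members reach 88.7% higher beside 26.2% of all genes, while in ground tissue against the QC area they stand at 5.33% higher and 4.67% lower.

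The largest rises were in members with next to no RNA in zone 1. MA_33582g0010 had no count in any zone 1 library, 8.77, 4.51, 14.6, 11.05 and 8.40 CPM in zone 2 and 50, 30.1, 62.8, 42.6 and 32.8 CPM in zone 3. Zone 2 was at least 83.2-fold and zone 3 at least 395-fold higher than a floor of 3 counts over the 5 zone 1 libraries, with adjusted p = 1.2e-08 and 1.0e-12 in edgeR's test. Its zone 2 and zone 3 libraries did not overlap, while a lack of overlap with zone 1 was a condition for naming it. MA_105240g0010 had 1 count in zone 1, 342 counts in zone 2 and 2924 in zone 3. Its mean was 13.7 ± 9.22 CPM in zone 2, 111 ± 46.0 CPM in zone 3 and 469 ± 53.2 CPM in zone 4 (SD, n = 5 each). From the counts the ratio of zone 3 to zone 1 was 3039, with an exact 95% binomial interval of 545 to 120081 that covers counting error only.

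Between zones 2 and 3, MA_279651g0010 and MA_132211g0010 rose most. MA_279651g0010 had 5.76, 2.12, 6.55, 2.87 and 3.26 CPM in zone 3, against a single count in zone 2 at 0.173 CPM in replicate 3. That is 110 counts against 1, and edgeR gave adjusted p = 9.6e-08. MA_132211g0010 had 25.2, 5.64, 18.6, 20.1 and 11.9 CPM in zone 3, against 0.849, 0.181, 0.520, 0.902 and 0 CPM in zone 2, for a log2 fold change of 5.23 (SE 0.52, adjusted p = 9.6e-08 in edgeR's test). Both were without a count in zone 1, and a lack of overlap between zones 2 and 3 was a condition for naming them.

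The 5 members that were lower in zone 2 than in zone 1 moved little. MA_474985g0010 had 2.83, 4.88, 3.64, 1.80 and 4.85 CPM in zone 2, against 7.20, 7.03, 7.23, 5.67 and 7.05 CPM in zone 1, a log2 fold change of -0.87 (SE 0.25, adjusted p = 0.0055 in edgeR's test). MA_49677g0010 fell to 2.47 ± 0.594 CPM in zone 2, against 4.49 ± 0.843 CPM in zone 1 (SD, n = 5 each). Its log2 fold change was -0.80 with an SE of 0.24 and an adjusted p of 0.0061 in the same test. A lack of overlap between the 2 zones was a condition for naming these genes. Both were called higher in zone 3 than in zone 2 with zone 3 means of 8.92 ± 2.10 and 10.9 ± 2.14 CPM (SD, n = 5 each), and no member was called lower by at least 2-fold in zone 2. Neither change reached 2-fold, and over the alternatives that set no minimum change the adjusted p ran from 0.00080 to 0.024 for MA_474985g0010 and from 0.0035 to 0.022 for MA_49677g0010.

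For 104 of the 150 members the zone 3 level was at least 25% of the zone 4 level. In the median member it was 30.1%, on the (CPM + 1) scale, and the quartiles were 23.9% and 36.8%. The rule caps this ratio, and the members' highest was 42.0%. The lowest, 3.81%, belonged to MA_10429143g0010, named after its values were seen. It had 1.64, 0.470, 1.03, 1.10 and 0.651 CPM in zone 3 and 75.2, 14.4, 32.3, 125 and 7.39 CPM in zone 4. Its zone 4 libraries lay far apart from each other, although none of them overlapped with zone 3, and its zone ratio of 26.2-fold is the highest of the members.

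Zones 2 and 3 also varied together from replicate to replicate. The members' share of counts had the same order of replicates in both zones, with replicate 3 highest and replicate 2 lowest. Shares were 0.779%, 0.442%, 0.925%, 0.628% and 0.546% in replicates 1 to 5 of zone 3 and 0.237%, 0.179%, 0.298%, 0.216% and 0.206% in those of zone 2. Replicate 3 was the highest library for 84 of 150 members in zone 3 and for 93 of the 149 with a count in zone 2, and replicate 2 was the lowest for 105 and 70. The median coefficient of variation of members with at least 10 CPM was 31.9% in zone 3 and 21.6% in zone 2, where all genes of that level had 13.9% and 13.5%. In zone 4 it was 17.0%, beside 12.8% for all. What sets these replicates apart was not tested.

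The order among stele 1, ground tissue and the QC area, the 3 captured groups in which the members were low, did not enter the rule either. Ground tissue was higher than the QC area for 8 members (5.33%), lower for 7 (4.67%) and not called for 135, beside 3.23% higher and 1.51% lower among all tested genes. At an unadjusted p under 0.05 the members' counts were 14 and 21, and DESeq2 called 11 higher and 15 lower. Of the lower-ranked genes, edgeR called 4.87% higher and 8.44% lower in ground tissue than in the QC area. Only 60 members pass the filter on the libraries of these 2 groups alone, and 6 of them were higher and 7 lower in a fit of those libraries, while the other 90 were tested through their levels in the steles. For 52 members the 2 groups together held under 10 counts, and 33 had no count in either, so a difference in those was not detectable at this depth.

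Stele 1 was above both in part of the members, and its own libraries were uneven. Replicate 1 had a member share of 0.251%, against 0.0837% to 0.137% in the other 3, and was the highest stele 1 library for 72 of the 121 members with a count there. Over all its libraries, stele 1 was higher than the QC area for 34 members (22.7%) and lower for 2 (1.33%). Among all tested genes 8.42% were higher and 1.03% lower. Stele 1 was higher than ground tissue for 34 members (22.7%) and lower for 0, beside 4.78% higher and 1.25% lower among all. At an unadjusted p under 0.05 the counts were 59 higher and 7 lower against the QC area, and 58 higher and 4 lower against ground tissue. DESeq2 called 42 higher and 3 lower against the QC area, and 43 higher and 2 lower against ground tissue. Median log2 fold changes were 0.75 and 0.74 over the members, and 0.054 and 0.028 over all tested genes. Of the lower-ranked genes, edgeR called 15.6% higher in stele 1 than in the QC area and 0.649% lower. Against ground tissue it called 15.6% of them higher and 1.3% lower. In fits of the 2 groups alone, 18 of the 74 members that pass the filter were higher than the QC area and 2 lower, and 19 of 70 were higher than ground tissue. Without ground tissue replicate 2, its single lane 7 library, the count against ground tissue was 22. Without its lane 8 replicates 1, 3 and 4 in turn it was 28, 26 and 23. Without stele 1 replicate 1, 24 members were higher and 1 lower than the QC area, and 23 higher and 1 lower than ground tissue. Within lane 8 alone, with 2 stele 1 libraries, 9 members were called against the QC area (7 higher, 2 lower) and 10 against ground tissue, and within lane 7, where ground tissue has 1 library, 9 were.

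The largest differences were of members with no count on one side. MA_112555g0010 had 19.9, 8.48, 0.693 and 10.8 CPM in stele 1, against no count in the 4 QC area libraries, at least 104-fold higher than a floor of 3 counts over that group (adjusted p = 0.00013 in edgeR's test). MA_348255g0010 had 2.84, 3.10, 0.693 and 1.55 CPM in stele 1, also against no count in the QC area (adjusted p = 0.0035 in edgeR's test). Stele 1 replicate 3, in lane 8, was the lowest stele 1 library in both. Neither gene passes the filter on stele 1 and the QC area alone, so both were tested through their levels in the other steles. Against ground tissue, MA_3099234g0010 had 7.90, 2.15, 2.54 and 2.06 CPM and MA_10429002g0010 6.28, 3.10, 0.577 and 1.29 CPM in stele 1, where all 4 ground tissue libraries had no count in either gene. Adjusted p was 0.00037 and 0.0052 in edgeR's test. Within lane 8, with 2 and 3 libraries, it was 0.078 and 0.23, so neither call held there, at log2 fold changes of 7.296 and 5.999 beside 7.891 and 7.498 in all libraries. Over the alternatives that gave a value adjusted p ran from 1.6e-08 to 0.078 and from 2.1e-06 to 0.23. MA_10429002g0010 does not pass the filter on stele 1 and ground tissue alone, so that setting gave no value for it.

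Of the members called higher in ground tissue than in the QC area, MA_10103038g0010 differed most. It had 37.0, 43.1, 15.5 and 26.4 CPM in ground tissue, against 0, 0.684, 0.321 and 0 CPM in the QC area, a log2 fold change of 6.94 (SE 0.90, adjusted p = 0.00012 in edgeR's test). Its stele 1 mean was 9.11 ± 8.49 CPM and its ground tissue mean 30.5 ± 12.1 CPM, with stele 3 at 397 ± 224 CPM (SD, n = 4 each). MA_10427930g0010 had 3.19, 0.747, 0.696 and 0.310 CPM in ground tissue, against no count in the QC area (adjusted p = 0.0060 in edgeR's test, 0.053 within lane 8 and 4.5e-05 to 0.053 over the alternatives that gave a value). It does not pass the filter on these 2 groups alone and was tested through its levels in the steles.

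Among members that were lower, MA_49677g0010 was called lower in both stele 1 and ground tissue than in the QC area. It had 0, 0.404, 0.231 and 0.773 CPM in stele 1 and 0, 0.107, 0 and 0.413 CPM in ground tissue, against 6.40, 4.22, 1.28 and 2.41 CPM in the QC area. Log2 fold changes against the QC area were -3.09 (SE 0.78, adjusted p = 0.014) for stele 1 and -4.53 (SE 0.86, adjusted p = 0.0036) for ground tissue in edgeR's test. The stele 1 call was lost within lane 8 (adjusted p = 0.15), with lane as a covariate (0.061) and without QC area replicate 1 (0.053), over a range of 0.00056 to 0.15. In those 3 settings its log2 fold change was -2.80, -2.83 and -2.61. MA_10296151g0010 averaged 0.257 ± 0.221 CPM in stele 1, against 4.71 ± 1.98 CPM in the QC area (SD, n = 4 each, adjusted p = 0.029 in edgeR's test). MA_3493194g0010 had 1 count in ground tissue, against 40 in the QC area (adjusted p = 0.019 in edgeR's test), and it does not pass the filter on these 2 groups alone. Both lost their call when single libraries were left out, with adjusted p up to 0.091 and 0.071 over ranges that began at 0.0017 in each.

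A single gene took a large part of the members' counts in these 3 groups. MA_810002g0010, named after its values were seen, was the largest member by counts in all of them and took 14.3% of the member sum in stele 1, 25.4% in ground tissue and 23.2% in the QC area. It had 286, 192, 207 and 154 CPM in stele 1, 244, 264, 174 and 142 CPM in ground tissue and 213, 108, 119 and 154 CPM in the QC area, and these groups overlap. At the other end, 27 members had no count in any of the 12 libraries of these groups, which together held 101 M counts, so a mean of up to 0.0296 CPM would be allowed by a floor of 3 counts. Of these 27, 19 also had no count in zone 1, as did 3 of the other 123 members. All 27 had a count in every zone 3 library.

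Stele 2 was the captured group that the rule did not use, and it held an intermediate level of most members. Its mean lay between stele 1 and stele 3 for 143 of 150 members, and for 168 of the 308 lower-ranked genes. Over all tested genes 20.1% had the order stele 1 below stele 2 below stele 3. The stele 2 level was 43.9% of the stele 3 level in the median member on the (CPM + 1) scale, with quartiles of 28.7% and 61.3%, and 79.1% in the median lower-ranked gene. It was at least 50% for 56 members, from 25% to 50% for 67, from 10% to 25% for 26 and under 10% for 1. Since stele 1 and stele 3 entered the rule, these values and the counts in the next paragraph are a description.

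In edgeR's test stele 2 was higher than stele 1 for 123 members and lower for 0, beside 12.4% higher and 8.97% lower among all tested genes. Stele 3 was higher than stele 2 for 48 and lower for 0, beside 3.85% higher and 9.16% lower. DESeq2 called 128 and 65 higher and 0 lower in either, and at an unadjusted p under 0.05 edgeR had 135 and 91 higher and 0 lower. Every stele 2 library lay above every stele 1 library for 86 members (9.06% of tested genes), and every stele 3 library above every stele 2 library for 44 (4.23%). The step from stele 2 to stele 3 depended on single libraries. Its count was 20 without stele 2 replicate 3, 20 without stele 3 replicate 1, 29 without stele 3 replicate 4 and 6 within lane 7, where stele 3 keeps 3 libraries. The count for stele 2 over stele 1 was 35 within lane 7, where stele 1 keeps 2 libraries.

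Stele 2 libraries differed from each other in how many of the members' counts they held. Member shares were 0.807%, 0.638%, 0.357% and 0.566% in replicates 1 to 4, and replicate 3 was the lowest library for 90 members. Set against the stele 3 mean, the median member stood at 52.1%, 49.1%, 22.1% and 35.8% in these 4 libraries. In stele 3, replicate 1 had a share of 1.51% and was highest for 67 members, and the other 3 had 1.20%, 1.21% and 1.20%. It is also the one stele 3 library in lane 8, and the part of the lane in this was not tested. The median coefficient of variation of members with at least 10 CPM was 43.4% in stele 3 and 53.5% in stele 2, where all genes of that level had 24.8% and 29.7%.

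**Figure D5:**
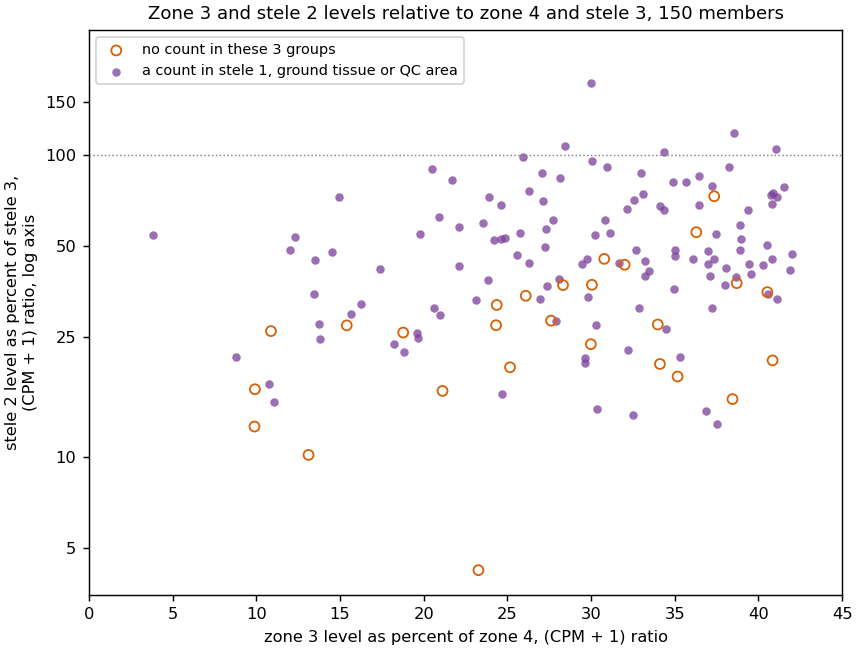
Each of the 150 members by its zone 3 level as percent of zone 4 (horizontal) and its stele 2 level as percent of stele 3 (vertical, log axis), both from (CPM + 1) ratios, with a dotted line at 100%. Open circles are the 27 members without a count in stele 1, ground tissue and the QC area, with a median stele 2 level of 27.3%, and filled points the other 123, with 47.2%.

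The members ran from a stele 2 level above stele 3 to one near 0. MA_112555g0010 had the highest ratio, 173%, with 80.8, 56.0, 57.0 and 61.0 CPM in stele 2 and 47.5, 36.5, 26.2 and 35.2 CPM in stele 3. On library totals all its stele 2 libraries lay above all its stele 3 libraries, and the ratio was 158% to 180% without any one of the stele 2 libraries. The TMM scaling of edgeR's test has factors of 0.753 for stele 3 replicate 1 and 1.00 and 0.948 for stele 2 replicates 2 and 3. On that scale stele 3 replicate 1 lies above those 2 stele 2 libraries, so the groups overlap. MA_112555g0010 averaged 1.27 ± 0.640 CPM in zone 1, 18.4 ± 2.21 CPM in zone 2, 16.5 ± 3.21 CPM in zone 3 and 57.3 ± 11.9 CPM in zone 4 (SD, n = 5 each), and the libraries of zones 2 and 3 overlap. MA_10427607g0010 came next at 119%, but this rested on 1 library. It had 891, 123, 62.2 and 105 CPM in stele 2 and 266, 162, 273 and 292 CPM in stele 3, and without stele 2 replicate 1 its ratio was 39.2%. On library totals stele 2 was above stele 3 in 5 members in all, in 8 without stele 2 replicate 3 and in 6 or 7 without each of the others. TMM factors were 0.753 to 0.872 in the stele 3 libraries and 0.836 to 1.00 in the stele 2 libraries. TMM scaling therefore raises stele 3 more for most pairs of libraries, and the count of 5 was not repeated on it.

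At the low end, MA_132211g0010 had 11.2, 5.34, 0.648 and 0 CPM in stele 2 and 182, 69.7, 165 and 82.0 CPM in stele 3, a ratio of 4.22%, or 2.38% without stele 2 replicate 1. MA_956097g0010 had 2.75, 0.0834, 0 and 0 CPM in stele 2 and 25.9, 16.5, 11.9 and 8.86 CPM in stele 3, a ratio of 10.2%, or 6.12% without stele 2 replicate 1. Neither overlapped between the 2 groups, and neither had a count in stele 1, ground tissue, the QC area or zone 1. Their zone 3 levels were less alike. MA_132211g0010 was at 16.3 ± 7.60 CPM in zone 3 and 73.3 ± 19.5 CPM in zone 4, and MA_956097g0010 at 0.928 ± 0.695 CPM and 13.7 ± 3.41 CPM (SD, n = 5 each). Over all 150 members the log2 ratio of zone 3 to zone 4 and that of stele 2 to stele 3 had a Pearson r of 0.281 and a Spearman rho of 0.253, a description over genes that share their libraries.

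Most members were the only gene listed for their scaffold, reading the part of the ID before the letter g as the scaffold. They lay on 148 scaffolds, and 132 of them (88%) were alone there among the genes listed, as were 74.9% of all listed genes. A pair of scaffolds held 2 members each. On MA_10434370, MA_10434370g0010 and MA_10434370g0040 both had no count in stele 1, ground tissue and the QC area. Their zone 4 means were 44.6 ± 3.06 and 82.0 ± 7.61 CPM and their zone 3 means 10.1 ± 6.18 and 24.6 ± 13.3 CPM (SD, n = 5 each). In stele 3, replicate 3 was the lowest library in both, at 4.11 and 1.70 CPM, as it was for 53 of the 150 members. On MA_39262, MA_39262g0020 had 78.7, 26.2, 8.89 and 12.0 CPM in stele 2 and MA_39262g0010 had 31.2, 10.3, 2.59 and 5.79 CPM, and the replicates fell in the same order. Over the 150 members, stele 2 replicate 1 was the highest library for 71 and replicate 3 the lowest for 90. Whether these scaffold pairs are separate genes, pieces of 1 gene or near-identical copies that share reads cannot be told from the counts.

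The members' scaffolds hold 19 other listed genes, and these did not all go the same way. MA_424619g0010, beside the member MA_424619g0020, is itself a lower-ranked gene. Its means were 14.5 CPM in zone 4, at most 5.73 CPM in zones 1 to 3 and 22.2 CPM in stele 3. A neighbour can also go another way. MA_10431230g0010 is a member with 100.02 ± 14.3 CPM in zone 4 (SD, n = 5) and 37.3 ± 17.6 CPM in stele 3 (SD, n = 4). The other gene on its scaffold, MA_10431230g0020, named after its values were seen, had 37.6, 31.9, 53.3, 46.9 and 19.2 CPM in zone 4 and 8.39, 1.18, 9.83, 3.75 and 1.52 CPM in zone 3. It had no count in any stele 3, stele 1, ground tissue or QC area library and 7 counts in stele 2, all in replicate 4. Its zone 4 libraries all lay above its zone 3 libraries, so it has the zone pattern of the members without the stele 3 level.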

How the data were processed

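Per the labels' protocols, zone RNA came from a chloroform and isoamyl alcohol extraction followed by RNeasy, and captured tissue was extracted with RNAqueous-Micro. Trimmomatic, STAR and HTSeq are named in the submitters' processing notes. Versions, build, annotation and strandedness were not given in the sources used here, so overlapping or antisense genes cannot be told apart and near-identical copies may share reads. The deposited tables hold raw counts per gene, in 1 table of 20 zone libraries and 1 of 20 captured libraries. Stele columns of the captured table are headed by Z and a number without the word stele, and were assigned through the library descriptions, since the ground tissue and QC area columns are named apart.

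CPM were computed on library totals. Tests used edgeR 4.0.16 in R 4.3.3 with filterByExpr, TMM scaling and the quasi-likelihood fit over all groups of a table. DESeq2 1.42.0, other scalings, only the groups compared, lanes, a replicate block and left-out libraries were alternatives. The SE is the log2 fold change over the square root of F. Folds against 0 counts use a floor of 3 counts over the group. Bounds and intervals cover counting error only, since reads carry no molecular identifiers. No replicates agreed within sampling noise, with at least 1.90 chi-square per gene. The procedure was tested on simulated data. Replicate numbers were checked as pairing by correlating deviations from group means across genes. For zone 3 against zone 2 the 5 correlations were 0.113 to 0.324, so these numbers met the criterion for pairing, a correlation above 0.1 in every pair, and no other comparison met it. The reported tests have no block, and the block was an alternative, with 136 calls (135 higher, 1 lower) beside 133 for zone 3 against zone 2. The members and the rule for naming were chosen with earlier results of these data known. The genes named are the 2 members highest in rank, zone 4 level and stele 3 level, the 2 highest and 2 lowest in stele 2 to stele 3 ratio, the 2 largest rises and falls per tested contrast among called members with at least 1 CPM and no overlap, the last 2 inside the rank limit, the first 2 outside it and members that share a scaffold. Lists of marker genes by product name could not be applied to unnamed IDs.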

Additional observations from a re-analysis of the deposited data

Results flagged for a closer look

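In groups of 4 or 5 libraries, a library was marked when its gap to the nearest other library was a large part of the group's range (Dixon's criterion). It was applied to 190 groups of values of the members named above and of the members together, and marked 19. Its nominal rate of about 1 in 20 assumes independent normal values. The genes here share libraries and some were named for extreme values, so the 19 cannot be set against that rate. The median member CPM was 6.94 in zone 2 replicate 3, and 3.79 to 4.53 in the others. The members' share of counts was 1.51% in stele 3 replicate 1, and 1.20% to 1.21% in the others.

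Stele 1 replicate 1 was marked in 4 members. MA_20223g0020 had 27.5 CPM there, and 0 to 0.404 CPM in the other stele 1 libraries. MA_10427607g0010 had 8.10 CPM, and 0 to 0.135 CPM in the others. MA_3493194g0010 had 12.6 CPM, and 1.35 to 1.55 CPM in the others. MA_3099234g0010 had 7.90 CPM, and 2.06 to 2.54 CPM in the others. This is the shallowest captured library, and whether depth has a part in it was not tested.

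MA_10427607g0010 was also high in replicate 1 of stele 2, at 891 CPM beside 62.2 to 123 CPM, and of ground tissue, at 10.9 CPM beside 0.214 to 1.96 CPM. Zone 4 replicate 4 was high for MA_17548g0010, at 95.6 CPM beside 50.2 to 55.8 CPM, and for MA_24872g0010, at 137 CPM beside 61.5 to 79.4 CPM, and low for MA_17807g0010, at 31.3 CPM beside 38.3 to 39.5 CPM. In the QC area MA_9472752g0010 had 12.8 CPM in replicate 1 beside 4.71 to 6.05 CPM, and MA_24872g0010 had 47.2 CPM in replicate 4 beside 8.97 to 14.2 CPM. MA_10427930g0010 had 3.19 CPM in ground tissue replicate 1 beside 0.310 to 0.747 CPM, and MA_3099234g0010 15.9 CPM in stele 2 replicate 3 beside 7.51 to 7.68 CPM. In zone 1, MA_474985g0010 had 5.67 CPM in replicate 4 beside 7.03 to 7.23 CPM, and MA_10429002g0010 4.80 CPM in replicate 1 beside 2.03 to 2.72 CPM. MA_10103038g0010 had 24.7 CPM in zone 3 replicate 2 beside 46.2 to 53.6 CPM, and MA_10434370g0040 1.70 CPM in stele 3 replicate 3 beside 14.9 to 16.5 CPM.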

How the results depend on the processing

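Over zones 1 to 3, counts of members called stayed within 1.5 times the reported ones under every alternative tried. Without single libraries they were 99 to 112 for zone 2 against zone 1, 129 to 136 for zone 3 against zone 2 and 143 to 145 for zone 3 against zone 1. With the replicate block, which pairs zones 2 and 3, zone 3 against zone 2 gave 136 calls, zone 2 against zone 1 gave 117 and zone 3 against zone 1 gave 146. The block moved no captured count by over 1.5 times, at 17, 38, 30, 115 and 47 for ground tissue against the QC area, stele 1 against the QC area, stele 1 against ground tissue, stele 2 against stele 1 and stele 3 against stele 2.

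Captured counts moved more, and the cause was not tested. DESeq2 called 26 members for ground tissue against the QC area. With only the groups compared, 20 were called for stele 1 against the QC area, 19 for stele 1 against ground tissue, 68 for stele 2 against stele 1 and 24 for stele 3 against stele 2. The filter then kept 74, 70 and 117 members in the first 3 of these. Within lane 8, 9 were called for stele 1 against the QC area and 10 for stele 1 against ground tissue. Within lane 7, 9 were called for stele 1 against ground tissue, 35 for stele 2 against stele 1 and 6 for stele 3 against stele 2. Scaling by total counts gave 30 for stele 3 against stele 2 and moved the median of all genes to -0.34 there, -0.22 for stele 2 against stele 1 and -0.11 for zone 3 against zone 2. Without single libraries the counts were 8 to 13 for ground tissue against the QC area, 24 to 42 for stele 1 against the QC area, 22 to 43 for stele 1 against ground tissue, 94 to 124 for stele 2 against stele 1 and 20 to 45 for stele 3 against stele 2. Without QC area replicate 1, 8 members differed between ground tissue and the QC area.

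The median stele 2 level was 37.2% to 50.8% of stele 3 without single libraries. Leaving out stele 2 libraries for single members was chosen after seeing the data. When stele 2 was added to the groups that stele 3 must exceed, 97 of the 150 members were kept, and without single libraries 131 to 150 were. Of 303 alternative values for 18 contrasts of named genes, 285 kept their call, 18 missed the threshold and 0 changed direction. These contrasts were named for large called changes without overlap, which favours kept calls and directions. Settings in which a gene did not pass the filter gave no value and are not among the 303. The captured libraries spread more widely, with a common coefficient over all tested genes of 48.2% against 16.0% in the zones. The members' median coefficient was 65.2% against 24.7%. The part of this spread in the captured counts was not tested.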
